A study of Rattus norvegicus with 24 samples.

Results

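Pf4 and Ppbp, a pair of chemokine genes known as products of platelets, were followed array by array in the dorsal root ganglia of rats with vincristine-induced neuropathy. The members were the probes of an Illumina rat expression array whose gene symbol was Pf4 or Ppbp, which gave 2 of 22517 probes, 1 for each of the 2 genes out of 13336 genes named on the array. Of these 2 probes, 1 passed the detection filter described below and was tested. The genes were chosen by their values in vincristine against control rats, read earlier in these same data, so that contrast is a description here, with no test.

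The ganglia, which hold the cell bodies of the sensory neurons of the hind limb, came from lumbar levels of 24 Sprague-Dawley rats aged 3 months, with 1 array per rat. Each rat received vincristine, an anti-cancer drug that damages peripheral nerves, or saline for 10 days, and then morphine, oxycodone or saline for 5 days. This gave 6 groups of 4 rats, named by the first and then the second treatment, as in vincristine-morphine or saline-oxycodone. The 12 rats given vincristine form the vincristine arm and the 12 given saline in its place form the control arm. The whole lumbar ganglion was profiled, so a change in the number of cells of a type and a change in RNA per cell cannot be told apart. Every rat was given injections over both periods, so the saline-saline group is the control and not an untreated one.

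Platelets are cell fragments without a nucleus that circulate in blood and carry RNA made by their parent cell, the megakaryocyte of the bone marrow. Their alpha granules store chemokines that are released when they are activated. Pf4, platelet factor 4 or Cxcl4, binds heparin and glycosaminoglycans. Ppbp, pro-platelet basic protein or Cxcl7, is the precursor of a peptide that attracts neutrophils through the receptor Cxcr2. Pf4 is also made by some macrophages in mice.

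In the RefSeq gene order of rat chromosome 14, Pf4 and Ppbp are next to each other among protein-coding genes, between Cxcl3 on the side of Pf4 and Cxcl6 on the side of Ppbp. The upstream sequence of Ppbp is shown because it is the member of the pair with a RefSeq promoter entry here. It is taken from the GRCr8 assembly at chr14:17587377-17587549, minus strand, 5′ to 3′, from the far end of a 250-base upstream window to the end of the TATAAA copy nearest to the start.

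Ppbp: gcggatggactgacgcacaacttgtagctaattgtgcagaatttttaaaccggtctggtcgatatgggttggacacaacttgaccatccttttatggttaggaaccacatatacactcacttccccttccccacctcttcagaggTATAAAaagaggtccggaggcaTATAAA

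The capitals mark the letters TATAAA, the core of a TATA box, which occurred 2 times on the forward strand, beginning 105 and 83 bases before the RefSeq start. TATAAA on either strand was held by 12.9% of 33469 rat promoters over windows of the same length. AGATAA, the letters bound by GATA factors, was not in the window on either strand and was held by 10.3% of promoters. GGAA, the core letters of ETS factors, occurred 2 times forward and 3 times reverse and was held by 93.2% of promoters. These matches describe letters in the sequence.

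Levels are log2 values after background correction and quantile normalization, and signals are the deposited linear values. A probe was taken as detected on an array where its detection p-value, the chance of such a signal from control beads, was at most 5e-04. The arrays had between 6112 and 6907 detected probes and median signals between 48.6 and 72.8. A probe detected on at least 4 arrays was tested, which kept 7043 probes. No probe's level is set against another's, since probes differ in how bright they are.

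Pf4 was detected on all 24 arrays, and its level was higher in the vincristine arm, with a wide spread between rats. The mean level was 9.416 ± 1.16 (SD, n = 12) in the vincristine arm and 7.851 ± 0.448 (SD, n = 12) in the control arm, a difference of 1.57 on the log2 scale or 2.96-fold. The difference between the medians of the arms, 9.028 and 7.724, was 1.30, or 2.47-fold. In deposited signal the lowest, median and highest values were 267.7, 608.2 and 2559 in the vincristine arm and 139.1, 272.4 and 447.7 in the control arm. Pf4 was one of 7 probes of 7043 (0.0994%) with a difference of at least 1.5, and the rule that chose it used this contrast.

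In the vincristine-saline rats the Pf4 level was 11.31, 10.59, 8.46 and 9.24 in replicates 1 to 4. In the saline-saline rats it was 7.64, 7.20, 7.65 and 7.74. All 4 vincristine-saline arrays lay above all 4 saline-saline arrays, which was the case for 0.525% of the tested probes, and the difference was 2.34, or 5.07-fold. In the vincristine-morphine rats the level was 11.64, 8.93, 8.40 and 8.82. In the saline-morphine rats it was 8.05, 8.89, 7.70 and 8.49. These groups overlapped, with 2 of 4 vincristine-morphine arrays above the highest saline-morphine array and a difference of 1.17, or 2.24-fold. For 0.639% of tested probes all 4 vincristine-morphine arrays lay above all 4 saline-morphine arrays. In the vincristine-oxycodone rats the level was 8.35, 8.37, 9.13 and 9.76. In the saline-oxycodone rats it was 7.72, 7.54, 7.87 and 7.73. All 4 vincristine-oxycodone arrays lay above all 4 saline-oxycodone arrays, as for 1.04% of tested probes, and the difference was 1.19, or 2.28-fold.

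Over all rats, 7 of 12 vincristine arrays lay above the highest control array, saline-morphine replicate 2, as was so for at least 7 of 12 arrays in 0.27% of the tested probes. The arms overlapped in the remaining 5. The 3 highest levels, in vincristine-morphine replicate 1, vincristine-saline replicate 1 and vincristine-saline replicate 2, were clear of the next array, vincristine-oxycodone replicate 4, by 0.83. The arms differed in the same direction in each of the 4 sets of 6 neighbouring columns of the signal table, which hold 1 array of each group, by 1.45, 2.56, 1.10 and 1.15. Leaving out any 1 array gave differences between 1.32 and 1.73.

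In the order of the group means, vincristine-saline came first at 9.899 ± 1.29 (SD, n = 4), followed by vincristine-morphine at 9.448 ± 1.48. Vincristine-oxycodone was the third at 8.902 ± 0.678 and saline-morphine the fourth at 8.283 ± 0.519. Saline-oxycodone, at 7.714 ± 0.136, and saline-saline, at 7.556 ± 0.242, were lowest. The ranges of every pair of neighbours in this order overlapped. The spread between rats was largest in the vincristine-morphine and vincristine-saline groups and smallest in the saline-oxycodone and saline-saline groups.

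**Figure D1:**
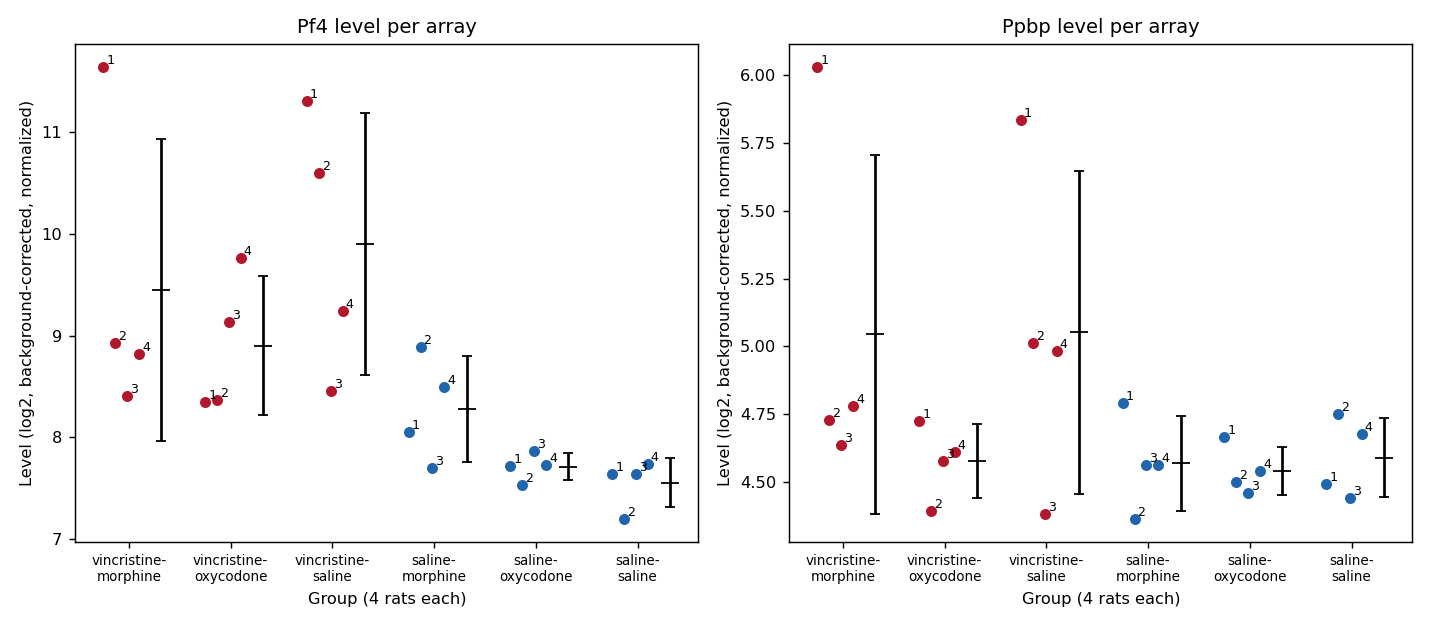
Pf4 (left) and Ppbp (right) log2 level on each of 24 arrays by group, with red points for the vincristine arm, blue points for the control arm, replicate numbers beside the points, and bars for the mean and SD of 4 rats. In both panels vincristine-morphine replicate 1, vincristine-saline replicate 1 and vincristine-saline replicate 2 are the 3 highest, with Pf4 at 11.64, 11.31 and 10.59.

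Ppbp was close to background. Its probe reached the detection limit on 0 of 24 arrays, so it was not tested in the fit across probes, and no fold change is given. At a looser detection p-value of 0.05 it was detected on 7 of 12 vincristine arrays and 3 of 12 control arrays. Its level was 6.03, 4.73, 4.64 and 4.78 in the vincristine-morphine rats. It was 5.83, 5.01, 4.38 and 4.98 in the vincristine-saline rats and 4.73, 4.40, 4.58 and 4.61 in the vincristine-oxycodone rats. The high arrays were again replicate 1 of the vincristine-morphine group and replicates 1 and 2 of the vincristine-saline group, with detection p-values of 0.00242, 0.00242 and 0.00485.

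In the control arm Ppbp was 4.79, 4.37, 4.56 and 4.56 in the saline-morphine rats. It was 4.67, 4.50, 4.46 and 4.54 in the saline-oxycodone rats and 4.49, 4.75, 4.44 and 4.68 in the saline-saline rats. The arms overlapped, and no control array reached the level of the 4 highest vincristine arrays. Group means ran from 5.052 ± 0.595 (SD, n = 4) in vincristine-saline and 5.044 ± 0.66 in vincristine-morphine through 4.591 ± 0.146 in saline-saline, 4.578 ± 0.137 in vincristine-oxycodone and 4.57 ± 0.174 in saline-morphine to 4.542 ± 0.0884 in saline-oxycodone. Every neighbouring pair in this order overlapped. The vincristine-oxycodone and saline-oxycodone rats, which did not overlap in Pf4, overlapped in Ppbp.

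Within the vincristine arm Pf4 and Ppbp varied together across rats. The members were chosen by the difference between the arms, to which the highest vincristine arrays of both genes contributed. The p-values of this relation are therefore not independent of that choice. Pearson's r was 0.897 (permutation p = 0.00046, adjusted p = 0.00828 over 18 relations, n = 12) and Spearman's rho was 0.685 (permutation p = 0.0169, adjusted p = 0.152). Without the 2 arrays farthest from the median of Pf4, vincristine-morphine replicate 1 and vincristine-saline replicate 1, r was 0.616 (permutation p = 0.059, n = 10), so the relation rests in large part on those 2 arrays. With each set centred on its own mean, r was 0.851. In the control arm r was -0.393 (permutation p = 0.206, adjusted p = 0.411, n = 12) and rho was -0.056 (permutation p = 0.87). Without saline-morphine replicates 2 and 4, the farthest control arrays in Pf4, r was -0.001, and with each set centred it was -0.504. Neither control value passed.

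The gene whose array pattern was most like that of Pf4 was Pla2g2a, which encodes the secreted group IIA phospholipase A2 that platelets store. Likeness was Pearson's r over 24 arrays of what remained after group and set were fitted, as a description with no test, since the points share arrays and normalization. Among 5498 other tested probes with a gene name, Pla2g2a had the highest r, at 0.93, where the top 1% of these probes began at 0.551. Of the 10 nearest, Pla2g2a and Plek are known in platelets. Toe1, which trims the ends of small nuclear RNAs, followed at 0.805, and Plek, pleckstrin, the major substrate of protein kinase C in platelets, at 0.797. Pdcl3 (0.775), Cdk14 (0.765), Tgfb2 (0.75), Txn2 (0.731), Metap1 (0.717), Nxt1 (0.691) and Sf3b1 (0.668) made up the 10. Of these, Cdk14, Txn2 and Metap1 dropped to 0.379, 0.115 and 0.292 when only group was fitted, while Pla2g2a and Plek were at 0.938 and 0.814. Toe1, Pdcl3, Tgfb2, Nxt1 and Sf3b1 were then at 0.564, 0.545, 0.688, 0.544 and 0.55. Without vincristine-morphine replicate 1 and vincristine-saline replicate 1, Toe1, Tgfb2 and Pdcl3 were at 0.882, 0.798 and 0.725, and Plek at 0.721. Cdk14, Txn2, Metap1, Nxt1 and Sf3b1 were then between 0.312 and 0.542.

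Pla2g2a kept its likeness to Pf4 without vincristine-morphine replicate 1 and vincristine-saline replicate 1, at r = 0.902. Its level ran from 6.24 through a median of 7.10 to 9.26 in the vincristine arm and from 5.56 through 6.28 to 7.62 in the control arm. The highest Pla2g2a levels were those of vincristine-saline replicate 1 at 9.26, vincristine-morphine replicate 1 at 9.13 and vincristine-saline replicate 2 at 8.72. Next came vincristine-oxycodone replicates 4 and 3, and then saline-morphine replicate 2 at 7.62, which was the highest control array for Pla2g2a as it was for Pf4. The arms overlapped in Pla2g2a, which was detected on 10 vincristine and 3 control arrays. It met the filter of 4 arrays through the vincristine arm, so its difference of 1.11 (SE 0.341) is a description. This difference did not pass in the fit across probes (adjusted p = 0.602, limma). For Plek the difference was 0.24 (SE 0.129, adjusted p = 1).

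Probes below the detection filter were then let in, a choice made after the values were seen. Gp9, P2rx1, F5, Plek and Alox12 are in the platelet lists, while Pla2g2a and Slc6a4 are not and were recognised as genes known in platelets after the ranks were seen. Of 13786 other named probes, those most like Pf4 after Pla2g2a were Gp9, a subunit of the platelet receptor for von Willebrand factor, at r = 0.909, and Slc6a4, the serotonin transporter by which platelets take up serotonin, at 0.895. P2rx1, the ATP-gated channel of platelets, followed at 0.856, and F5, coagulation factor V, which platelets also store, at 0.823. Alox12, the 12-lipoxygenase of platelets, was at 0.779 but at 0.474 without the 2 farthest arrays. The 10 also held Toe1, Plek, Ttbk1, a kinase of tau (0.784, and 0.811 without the 2 arrays), and Pdcl3. Gp9, Slc6a4, P2rx1 and Alox12 were detected on 0 arrays and F5 on 2 arrays, both of the vincristine arm, so these are patterns in weak signal.

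The same 3 arrays were the highest for Pla2g2a, Plek and each of Gp9, Slc6a4, P2rx1, F5 and Alox12. Gp9 was 5.45, 5.54 and 4.72 in vincristine-morphine replicate 1, vincristine-saline replicate 1 and vincristine-saline replicate 2, and the highest other array was at 4.69. F5 was 6.76, 6.81 and 6.50 on these arrays, against 5.94 for the next. Alox12 was 6.22, 6.07 and 6.03, against 5.40. The gap below the 3 arrays was 0.82 for Pla2g2a, next to 0.83 for Pf4, and it was narrow for Gp9 (0.038) and Ppbp (0.029). Of the 13787 probes with a gene name, 11 (0.0798%) had these 3 arrays as their 3 highest. They were Pf4, Ppbp, Pla2g2a, Alox12, F5, Plek, Slc6a4, P2rx1 and Gp9, together with Npy, a neuropeptide of sensory and sympathetic neurons, and Vcan, a matrix proteoglycan. Of the 29 genes with a probe in the platelet and megakaryocyte lists, 5 shared these 3 arrays and 24 did not. For Npy and Vcan the gap to the next array was 0.007 and 0.002. The 3 arrays were taken from the Pf4 values, so this count is a description.

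**Figure D2:**
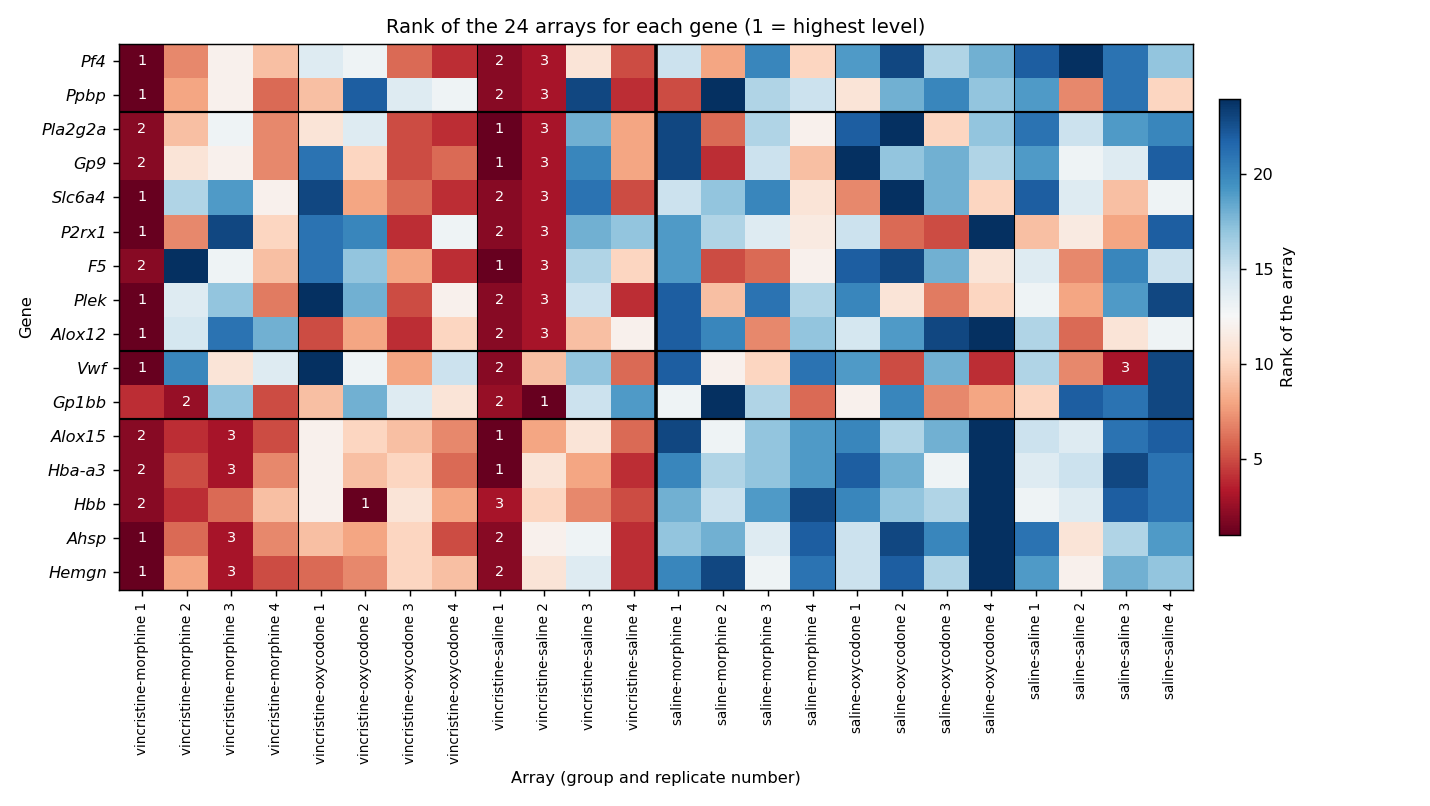
Rank of each of 24 arrays (columns, by group, with the thick line between the vincristine and the control arm) for 16 genes (rows), where 1 is the highest level and ranks 1 to 3 are printed. Pf4, Ppbp and the 7 genes below them share the same 3 highest arrays, and Vwf and Gp1bb do not. In the red blood cell genes at the bottom, vincristine-morphine replicate 1 and vincristine-saline replicate 1 are among the 3 highest. Vincristine-saline replicate 2 is not among the 3 highest in these genes.

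Vincristine-morphine replicate 1 and vincristine-saline replicate 1 also had the fewest detected probes of the 24 arrays, with low overall signal. They had 6241 and 6112 detected probes and median signals of 48.6 and 51.3, and vincristine-saline replicate 2 had 6370 and 56.4. The part of array brightness in the Pf4 pattern was not tested. Without background correction the difference in Pf4 between the arms was 1.45, and with each array centred on its median it was 1.57.

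The genes most like Ppbp were more mixed. Among 5499 tested probes with a gene name, Cdk14 (0.805), Txn2 (0.801), Med19 (0.773) and Pf4 (0.753) led, followed by Slc16a3, Map2k3, Ltb, Hemgn, Nxt1 and Srf. Pf4 had r = 0.19 without the 2 arrays farthest from the median of Ppbp. Among all named probes Gch1, which makes a cofactor of nitric oxide and monoamine synthesis (0.9), and Med20 (0.868) led. Slc6a4 (0.859), Car1, a carbonic anhydrase of red blood cells (0.851), Gp9 (0.842), Kank4, Nfe2, a transcription factor of megakaryocytes and red cell precursors (0.827), Trank1, Ap4m1 and Cdk14 made up the 10. Without the 2 farthest arrays Slc6a4, Gp9 and Nfe2 dropped to 0.377, 0.116 and 0.366. Cdk14, Med19, Gch1 and Car1 were then at 0.186, 0.197, 0.476 and 0.482, and Txn2 and Med20 at 0.565 and 0.713. When only group was fitted, Cdk14, Txn2 and Med19 were at 0.307, 0.107 and 0.273.

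Of 42 genes listed for surface and signalling proteins, granules and clotting, and cytoskeleton and transcription, 29 had a probe, 19 of these were detected on no array, and 8 were tested. The lists leave out Pf4 and Ppbp. None of the 8 was called by limma at an adjusted p of 0.05, against 0.199% of all tested probes (2.77% had an unadjusted p under 0.05), and their median difference was -0.03, against -0.00089 over all tested probes. Gp1bb, another subunit of the von Willebrand factor receptor, was detected on all 24 arrays at 9.540 in the vincristine and 9.416 in the control arm, a difference of 0.12 (SE 0.0636, adjusted p = 1). Vwf, von Willebrand factor, which endothelial cells make as well, differed by 0.09 (SE 0.0959, adjusted p = 1). Fli1 and Runx1, transcription factors of megakaryocytes and other blood and vessel cells, differed by -0.16 (SE 0.0659) and -0.04 (SE 0.0457), each with an adjusted p of 1.

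Genes of the platelet lists differed in how well they were detected. Gp1bb and Plek were detected on all 24 arrays, and which cells their signal came from was not tested. Their r with Pf4 was 0.577 and 0.887 in the vincristine arm and -0.044 and 0.077 in the control arm. Gp9, Gp5 and Treml1 were detected on 0 of 24 arrays, and at the looser p-value of 0.05 Gp9 was detected on 3 vincristine arrays and 0 control arrays, Gp5 on 5 and 1, and Treml1 on none. Itga2b, Gp1ba, Gp6 and Tubb1 had no probe matched by symbol.

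Genes of red blood cells were higher in the vincristine arm, as Pf4 was. Of 10 tested red blood cell and reticulocyte genes, 7 had been detected on at least 4 control arrays, and of these 5 rose (adjusted p under 0.05, limma) and none fell, where 0.0994% of all tested probes were called higher. With the set as a block all 7 passed. Their median difference was 1.09, against -0.00089 over all tested probes. Hba-a3, an alpha globin, rose by 2.43 (SE 0.208, adjusted p = 4.53e-07). The other 3, Alox15, Hemgn and Lgals5, were detected on 0 control arrays and entered the fit through the vincristine arm alone, so their values are a description. The list was chosen with earlier results of these data known. It holds all 7 probes called higher among all tested probes, so the count set against their share is a description too. Alox15, a lipoxygenase of reticulocytes in several species, ran from 8.79 to 11.74 in the vincristine arm and from 4.86 to 6.22 in the control arm. All its 12 vincristine arrays lay above all 12 control arrays, as in 0.0568% of tested probes. The mean level of the tested list ran from 9.714 to 11.014 in the vincristine arm and from 8.147 to 9.188 in the control arm. The part of red blood cell RNA in the Pf4 result was not tested.

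The order of the arrays was shared in part between Pf4 and these genes. Vincristine-morphine replicate 1 and vincristine-saline replicate 1, the highest for Pf4, ranked 2 and 1 for both Alox15 and Hba-a3. Their ranks were 1 and 2 for both Ahsp and Hemgn, and 2 and 3 for Hbb. Other arrays differed. Vincristine-saline replicate 2, the third highest array for Pf4, was the 8th of 24 for Alox15 and the 11th for Hba-a3. Vincristine-morphine replicate 3, the third highest for both of these genes, had a Pf4 level of 8.40, below the median of its arm. Within the vincristine arm, r of Pf4 with the mean of the red blood cell genes was 0.55 (permutation p = 0.0583, adjusted p = 0.214, n = 12), and it was -0.364 without vincristine-morphine replicate 1 and vincristine-saline replicate 1. For Ppbp it was 0.741 (permutation p = 0.0107, adjusted p = 0.0964, n = 12) and -0.058 without the same 2 arrays.

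The mean of the other tested platelet genes was set against both members in the same way. It was taken over Gp1bb, P2ry1, Plek, Vwf, Pdgfa, Serpine2, Fli1 and Runx1, and is not a measure of platelet RNA alone. Their own r with Pf4 in the vincristine arm was 0.577, -0.199, 0.887, 0.817, -0.411, -0.008, 0.445 and 0.046, in that order. Serpine2 had the widest spread of them there, with an SD of 0.952. Within the vincristine arm r of the mean with Pf4 was 0.538 (permutation p = 0.0671, adjusted p = 0.214, n = 12) and rho was 0.587 (permutation p = 0.0496, adjusted p = 0.223). With Ppbp r was 0.529 (permutation p = 0.0713, adjusted p = 0.214) and rho was 0.734 (permutation p = 0.00863, adjusted p = 0.152). Without vincristine-morphine replicate 1 and vincristine-saline replicate 1 r was 0.378 and 0.417. In the control arm r was 0.06 with Pf4 (permutation p = 0.854) and -0.627 with Ppbp (permutation p = 0.0308, adjusted p = 0.185). The value with Ppbp was -0.329 without saline-morphine replicate 1 and saline-saline replicate 2. With each set centred on its own mean, the control values were 0.228 with Pf4 and -0.88 with Ppbp. By Pearson's r, no relation but that of Pf4 with Ppbp in the vincristine arm passed after adjustment over the 18, and by rho none did. The p-value of that relation is not independent of the choice of the genes, as said above.

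**Figure D3:**
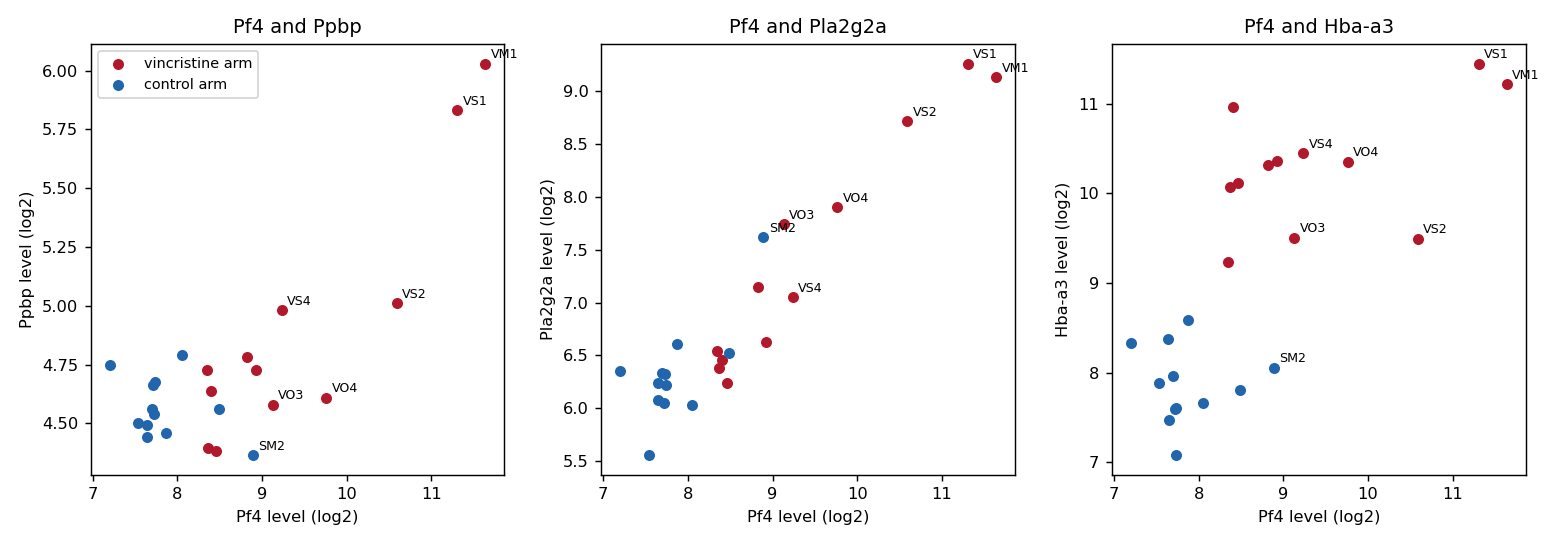
Log2 level of Pf4 (x axis) against that of Ppbp, Pla2g2a and Hba-a3 (y axes) on 24 arrays, with red points for the vincristine arm and blue for the control arm. VM1, VS1, VS2, VS4, VO3, VO4 and SM2 name the vincristine-morphine, vincristine-saline, vincristine-oxycodone and saline-morphine replicates. Pla2g2a is highest on the arrays with the most Pf4, Ppbp is raised on few arrays, and Hba-a3 separates the arms with VS2 low among the vincristine arrays.

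Some macrophages make Pf4 in mice, and the level of the macrophage list overlapped between the arms. None of its 10 tested genes was called, where 0.199% of all tested probes were, so the count says little of this list. Their median difference was 0.02, and the mean of the list ran from 7.981 to 8.416 in the vincristine arm and from 7.959 to 8.355 in the control arm. Within the vincristine arm r of Pf4 with this mean was 0.145 (permutation p = 0.647, adjusted p = 0.728, n = 12). Within the control arm it was 0.314 (permutation p = 0.319, adjusted p = 0.541, n = 12), and -0.039 without saline-morphine replicates 2 and 4. With each set centred on its own mean, r was -0.014 in the vincristine arm and 0.471 in the control arm. For Ppbp, near background, r with this mean was 0.308 in the vincristine arm (permutation p = 0.331, adjusted p = 0.541). In the control arm it was -0.514 (permutation p = 0.0878, adjusted p = 0.226), and -0.929 without saline-morphine replicate 1 and saline-saline replicate 2. The endothelial list, with 6 tested genes and a median difference of -0.03, and the sensory neuron list, with 12 tested genes and a median of -0.04, had no called gene either. Of the neutrophil genes 2 were tested and neither was called, and no lymphocyte gene was tested. Of 9 tested skeletal muscle genes, 8 had higher means in the vincristine arm, as had 3479 of all 7043 tested probes, and none was called. The mean of this list ran from 6.706 to 9.897 in the vincristine arm and from 6.395 to 10.253 in the control arm. It was above 7.5 on 6 arrays, of which saline-morphine replicate 4 was the only control array. The others were vincristine-morphine replicates 1 and 3, vincristine-oxycodone replicates 3 and 4, and vincristine-saline replicate 2. Leaving them out thus removes more vincristine than control rats. Without these 6 arrays the Pf4 difference between the arms was 1.14.

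The chemokines beside Pf4 and Ppbp on the chromosome had weak signal. Cxcl1, Cxcl3 and Cxcl6 and the related Cxcl2, all chemokines that attract neutrophils, were detected on 0 arrays. At the looser p-value of 0.05 Cxcl1 was detected on all 12 arrays of each arm, and Cxcl2, Cxcl3 and Cxcl6 on none. Of 9 tested chemokines none was called (0.199% of all tested probes were) and 3 had higher means after vincristine (3479 of 7043 had), with a median difference of -0.22. Among them Cxcl9 and Cxcl10, ligands of Cxcr3 induced by interferon, had differences of -1.01 (SE 0.306) and -0.78 (SE 0.237), each with an adjusted p of 0.568. Cxcr2, the receptor of the Ppbp product, was detected on 0 arrays at either p-value. Cxcr3, for which a human splice form binds Pf4, was detected on 0 arrays at the main limit and on 10 vincristine and 9 control arrays at 0.05. Of 3 tested chemokine receptors, Cxcr4, Ccr1 and Ccr7, none was called, and their differences were 0.00, 0.15 and -0.03.

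The opioid comparisons ask whether morphine and oxycodone, both agonists of the mu-opioid receptor, were followed by different levels in rats with and without neuropathy, and they played no part in choosing the genes. In vincristine rats Pf4 differed between morphine and oxycodone by 0.55 (SE 0.579, 95% interval -0.66 to 1.75, adjusted p = 1, limma), with an exact permutation p of 0.657. In control rats the difference was 0.57 (95% interval -0.64 to 1.77, adjusted p = 1), with an exact p of 0.114. In neither arm did the compounds differ beyond the spread between rats. The intervals run up to differences of over 1 on the log2 scale in favour of morphine, so like levels are not shown. Without vincristine-morphine replicate 1 the difference in vincristine rats was -0.19, and limma's array weights gave 0.93 in vincristine and 0.32 in control rats. No probe was called in either comparison (0%), where 53 and 268 probes had an unadjusted p under 0.05 (0.753% and 3.81%).

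Against saline in vincristine rats, the difference in Pf4 was -0.45 for morphine (95% interval -1.66 to 0.75, exact p = 0.714), and -0.997 for oxycodone (95% interval -2.20 to 0.21, exact p = 0.2). In control rats the difference was 0.73 for morphine (95% interval -0.48 to 1.93, exact p = 0.0571) and 0.16 for oxycodone (95% interval -1.05 to 1.36, exact p = 0.371). With array weights the morphine value in vincristine rats was 0.73 and that of oxycodone -0.21. Without vincristine-saline replicate 1 they were 0.018 and -0.53. The morphine value in control rats was higher in 4 of 4 sets, and the groups overlapped. Each adjusted p was 1, and no probe was called in these comparisons (0%). An unadjusted p under 0.05 was had by 1.82% of probes for morphine and 1.65% for oxycodone in vincristine rats, and by 2.09% and 2.67% in control rats. The exact tests are two-sided, and the smallest p that 4 against 4 rats allow is 0.0286.

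The vincristine difference in Pf4 with morphine as second treatment, less that with saline, was -1.18 (95% interval -2.88 to 0.53), and for oxycodone it was -1.16 (95% interval -2.86 to 0.55). Neither passed (adjusted p = 1, limma), with array weights they were 0.23 and -0.38, and no probe passed (0%, with 1.14% and 1.18% of probes under an unadjusted p of 0.05), so the larger difference in the saline groups is not shown to differ from the others.

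**Figure D4:**
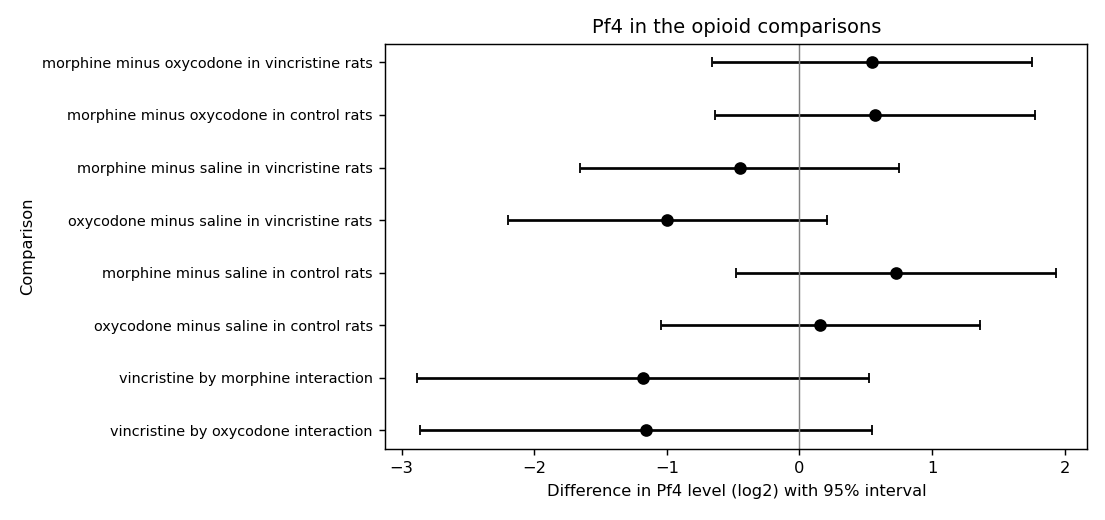
Difference in Pf4 log2 level (x axis) with its 95% interval from limma for 6 opioid comparisons and 2 interactions (y axis), with 4 rats per group. All 8 intervals include 0. The lowest, for the interaction with morphine, runs from -2.88 to 0.53, and the highest, for morphine against saline in control rats, from -0.48 to 1.93.

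For Ppbp the difference between morphine and oxycodone in vincristine rats was 0.47, higher in 4 of 4 sets with overlapping groups (exact permutation p = 0.0571). The value for oxycodone against saline in vincristine rats was -0.47 (exact p = 0.143), and that for morphine against saline was -0.01 (exact p = 0.971). In control rats the exact p-values were 0.8, 0.857 and 0.657 for morphine against oxycodone, morphine against saline and oxycodone against saline. These rest on signals of which none reached the detection limit. No gene of the platelet, chemokine, receptor, red blood cell or other lists was called in any of the 6 opioid comparisons.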

How the data were processed

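Total RNA of the ganglia was hybridised to Illumina RatRef-12 arrays. The authors deposited a table of unnormalized signal intensity with a detection p-value per probe and array, and log2 values, found here to be the quantile-normalized log2 signals without background correction. Columns of both tables named their samples. The signal intensities were corrected from the detection p-values and quantile-normalized with neqc (offset 16) in limma 3.58.1 under R 4.3.3, and every probe that reached a detection p-value of 5e-04 or lower on 4 or more of the 24 arrays entered lmFit and eBayes as 6 group means, with 18 residual degrees of freedom and Benjamini-Hochberg adjustment within each comparison. The study used a 2-way ANOVA and pairwise tests on values past the same detection limit. Of 22517 probes, 13787 had 1 gene symbol and 8730 none. Symbols were updated by Entrez number for 13747 probes, by accession for 5, and kept for 35. Permutation tests were exact for 4 against 4 rats and used 1e+05 resamples for correlations. Scripts were tested on simulated data.

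The members, lists and tests were chosen with earlier results of these data known. Named genes were the members, the 10 tested probes most like each member, and list genes that passed or had the largest differences; the nearest genes among all named probes and the count of probes sharing the 3 highest arrays were added after the values were seen. The number of arrays limits the precision. A set of 6 neighbouring columns is what the table's order shows; the sources used here do not say what the sets stand for. Alternatives were the normalization, the deposited values, the filter, array weights, set and replicate blocks, arrays high in muscle genes left out, and each array left out.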

Additional observations from a re-analysis of the deposited data

Results flagged for a closer look

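In the vincristine-morphine group, replicate 1 stood apart from the other 3 rats for both genes. Its Pf4 level of 11.64 gave a gap to the nearest replicate of 0.838 of the range of the group. Its Ppbp level of 6.03 gave a gap of 0.897 of the range, and both exceed the 95% critical value of Dixon's test for 4 samples. Chance flags about 1 in 20 groups, and 12 sets of 4 values were tested, 6 for each gene. The same array was the highest of 24 for Slc6a4, P2rx1, Plek, Alox12 and Vwf, and also for the red blood cell genes Ahsp and Hemgn. It had the lowest median signal, at 48.6. Without it, the difference in Pf4 between morphine and oxycodone in vincristine rats turned from 0.55 to -0.19.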

How the results depend on the processing

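No call on Pf4 or Ppbp in the opioid comparisons changed under the other settings tried, except for 2 exact tests of Ppbp. The Pf4 difference between the arms ran from 1.32 to 1.73 over the arrays left out 1 at a time, and was 1.14 when the 6 arrays with most muscle RNA were dropped. Of the opioid differences, array weights turned Pf4 for morphine against saline in vincristine rats to 0.73 and the vincristine by morphine interaction to 0.23. They moved Pf4 for oxycodone against saline in vincristine rats to -0.21, the oxycodone interaction to -0.38, and morphine against oxycodone to 0.93 in vincristine and 0.32 in control rats. Median centring moved oxycodone against saline in control rats from 0.16 to 0.064, and dropping the muscle-rich arrays moved morphine against saline in vincristine rats to -0.79. Morphine against saline for Ppbp in vincristine rats turned to 0.021 without background correction and with the deposited values, and in control rats to 0.008 with median centring. The cause was not tested.

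With 1 array left out at a time, Pf4 in vincristine rats ran from -0.19 to 0.89 for morphine against oxycodone, the lowest without vincristine-morphine replicate 1, and from -1.18 to 0.018 for morphine against saline, the highest without vincristine-saline replicate 1. For oxycodone against saline it ran from -1.48 to -0.53. Ppbp in vincristine rats ran from 0.14 to 0.60 for morphine against oxycodone, from -0.34 to 0.25 for morphine against saline and from -0.70 to -0.21 for oxycodone against saline. The exact p was 0.0286 for the first without vincristine-morphine replicate 3 and for the last without vincristine-saline replicate 3. In control rats Ppbp ran from -0.046 to 0.096 for morphine against oxycodone, from -0.094 to 0.048 for morphine against saline and from -0.097 to 0.005 for oxycodone against saline.

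Of all tested probes, 14 were called between the arms, against 25 with the looser filter, 9 with the strict one, 23 with array weights, 42 with the set block and 6 when the 6 muscle-rich arrays were dropped. For morphine against saline in control rats, 10 probes were called with array weights and 2 with the set block, against 0. The set block called 2 for oxycodone against saline in control rats and 1 for morphine against saline in vincristine rats. Replicate numbers did not pair the rats (mean r 0.0447 between same-numbered arrays, over 0.1 in 30 of 60 pairs), whereas sets did (0.412, 53 of 60). With the replicate block the Pf4 difference was 1.57 and the opioid calls were the same. The t-test of the methods, array weights and fits of only the arrays compared were not run for Ppbp, which no array detected. Ppbp lay near background, and a difference there was limited by its signal.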
